A study of Homo sapiens with 16 samples.

Results

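The SLC25 carriers are the membrane proteins that move metabolites across the mitochondrial inner membrane, and their mRNAs were measured here in T47D cells, a luminal breast cancer cell line of human origin. The members were all protein-coding genes of the deposited table whose symbol is SLC25A followed by a number. There were 48 such symbols in 49 rows, of 78986 rows in all. Of these, 42 reached 1 read per 1000000 assigned reads (1 CPM) in at least 4 libraries and were tested, among 16218 tested rows. The other 6 (SLC25A2, SLC25A31, SLC25A34, SLC25A47, SLC25A52 and SLC25A53) were below that filter. The cells had received a control guide or were knocked out for FAH, which completes the breakdown of tyrosine, and were given vehicle or 500 nM abemaciclib, an inhibitor of the kinases CDK4 and CDK6, for 3 days. The 4 groups were control cells under vehicle, control cells under abemaciclib, knockout cells under vehicle and knockout cells under abemaciclib, with 4 libraries each, 16 in all. The medium of every group was high in glucose and held serum. Whether the knockout cells were 1 clone or a pool is not given in the sources used here, nor whether each library had its own culture. Spread between libraries, the base of all p-values, may therefore be technical.

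The libraries held 9915776 to 11963093 assigned reads, so that 1 read was worth 0.0836 to 0.101 CPM. FAH lay at 5.03 to 7.02 CPM in the 8 knockout libraries and at 22.6 to 28.2 CPM in the 8 control libraries. The luminal markers ESR1 (71.9 to 105 CPM), GATA3, KRT8, KRT18, FOXA1 and EPCAM were present in every library. Markers of leukocytes (PTPRC, CD3E, CD14), endothelium (PECAM1, VWF) and basal cells (KRT5, KRT14, TP63) did not exceed 1.697 CPM, and of the mesenchymal markers COL1A2 did not exceed 0.850 CPM, while COL1A1 (40.6 to 60.6 CPM) and VIM (11.9 to 19.2 CPM) were detected. MKI67, a marker of cycling cells, went from 89.6 to 12.1 mean CPM under the drug in control cells and from 84.2 to 5.13 in knockout cells, and its part in the results was not tested. In bulk RNA of this kind, fewer cells with a transcript and less of it per cell cannot be told apart.

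The mitochondrial inner membrane is closed to most polar solutes, and the SLC25 proteins open it selectively. Each is built from a repeat of a pair of membrane helices that occurs in triplicate, and most exchange a substrate of the matrix for one of the cytosol. The ADP/ATP and phosphate carriers supply ATP synthase and export its product, the aspartate/glutamate and oxoglutarate carriers form the malate-aspartate shuttle, and others bring in amino acids, acylcarnitines, cofactors and iron. The carriers are encoded in the nucleus, made in the cytosol and inserted into the inner membrane by a dedicated import route.

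Upstream sequences are shown for 3 members: SLC25A4 and SLC25A5, ADP/ATP carriers that moved in opposite directions between genotypes under vehicle, and SLC25A29, which rose in all 4 group comparisons and was chosen after its values were seen. They come from RefSeq (GRCh38.p14) and run 5′ to 3′ on the gene's strand. The windows searched were the 250 bases before the start in RefSeq. GENCODE v29, from which gene positions are given here, places some starts farther upstream, so that 25, 44 and 103 bases of these windows lie inside the gene by that annotation. Only the bases before both starts are shown. Capitals mark matches, on either strand, to 4 motifs: the E2F spellings TTTGGCGC and TTTCCCGC, the ATF4 spelling TGATGNAA, the CCAAT box (CCAAT) and the GC box (GGGCGG). Where matches touch or overlap, their capitals run together.
SLC25A4 (chr4:185143016-185143240, plus strand): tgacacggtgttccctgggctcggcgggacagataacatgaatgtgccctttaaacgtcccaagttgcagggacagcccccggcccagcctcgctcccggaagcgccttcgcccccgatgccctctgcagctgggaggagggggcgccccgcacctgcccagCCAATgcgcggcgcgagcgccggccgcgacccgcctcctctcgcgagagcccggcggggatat
SLC25A5 (chrX:119468194-119468399, plus strand): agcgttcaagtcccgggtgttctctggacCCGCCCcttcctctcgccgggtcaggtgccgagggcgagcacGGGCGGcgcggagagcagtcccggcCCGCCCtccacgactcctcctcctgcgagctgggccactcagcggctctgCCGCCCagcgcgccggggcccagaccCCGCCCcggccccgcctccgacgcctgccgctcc
SLC25A29 (chr14:100306548-100306694, minus strand): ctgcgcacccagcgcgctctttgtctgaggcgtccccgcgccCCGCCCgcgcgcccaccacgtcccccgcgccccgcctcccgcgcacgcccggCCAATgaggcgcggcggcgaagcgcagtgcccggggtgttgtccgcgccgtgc

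The stretches shown differed in these matches. That of SLC25A5 held all 5 GC boxes of its window and no CCAAT box, and that of SLC25A4 held 1 CCAAT box and no GC box. Neither window matched the E2F or ATF4 spellings. Of the 3 GC boxes and 2 CCAAT boxes in the window of SLC25A29, 1 of each lay before both starts. The RefSeq windows of SLC25A6 and SLC25A11 lie inside the GENCODE v29 gene in 250 and 205 of 250 bases, and their matches are not read as upstream of the gene. Among all 34961 such RefSeq windows, 1.94% matched E2F, 3.14% ATF4, 31.97% the CCAAT box and 42.7% the GC box. The table held 50 windows of 40 members, and a GC box was found in 33 of them (66.0%). A match is a description of letters and not of a bound factor.

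The carriers' summed level, with each of 48 symbols counted once, was 2436 ± 17.6 CPM (SD, n = 4) in control cells under vehicle and 2216 ± 27.04 CPM in knockout cells under vehicle. Under abemaciclib it was 2027 ± 21.7 CPM in control and 2008 ± 8.67 CPM in knockout cells. Control cells without the drug thus held the highest sum, and the 2 genotypes lay close together under the drug. The sum of SLC25A5, SLC25A6 and SLC25A3 alone was 1501 ± 17.2 CPM in control and 1244 ± 27.5 CPM in knockout cells under vehicle, and 1132 ± 29.4 and 1094 ± 22.2 CPM under the drug. The sum over all other members ran between 878 and 976 CPM in the 16 libraries. These sums are descriptions and were not tested.

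Carriers rose and fell with the knockout in like numbers. Under vehicle 7 of 42 tested members rose and 8 fell in knockout cells (limma, adjusted p under 0.05 over all tested rows), with a median log2 fold change of 0.02. Over all tested rows, 24.6% rose and 13.1% fell, with a median of 0.06. Under abemaciclib 4 members rose and 4 fell in knockout cells, against 18.6% and 11.3% of all tested rows (median -0.00 for the members and 0.04 for all rows). When libraries were rescaled by median-of-ratios size factors, 7 rose and 10 fell under vehicle and 3 and 7 under the drug. Over all rows the split was then 2825 higher and 2983 lower under vehicle, against 3987 and 2121 with CPM as deposited, and 2126 and 2408 under the drug, against 3020 and 1837. With CPM as deposited, 19.0% of the members fell under vehicle and 16.7% rose. Their difference from the shares of all rows rests on few genes and was not tested. Without knockout vehicle replicate 1, 5 members fell under vehicle, beside 1949 of 16218 rows. All fold changes stand on the log2(CPM + 1) scale, where those of low genes come out too small.

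The drug was accompanied by more differences. In control cells 11 members rose and 17 fell under abemaciclib (median -0.12), where 19.6% of all tested rows rose and 31.1% fell (median -0.05). In knockout cells 6 rose and 16 fell (median -0.12), where 11% of all rows rose and 27.4% fell (median -0.07). The 6 members that rose in knockout cells also rose in control cells, and 15 members fell in both. No member rose in 1 genotype and fell in the other. How many of all tested rows were called in both genotypes was not counted, so these joint counts describe the members only. The mRNAs encoded by mitochondrial DNA took 7.697 ± 0.230% of all reads in control and 8.46 ± 0.0512% in knockout cells under vehicle, and 10.6 ± 0.316% and 9.72 ± 0.197% under the drug. Such a share enters every CPM value, and its part in the members' differences was not tested. After the same rescaling, 11 members rose and 14 fell with the drug in control cells, and 6 rose and 8 fell in knockout cells. Over all rows the split was then 4166 higher and 4017 lower in control cells, against 3181 and 5039 with CPM as deposited, and 3173 and 2886 in knockout cells, against 1780 and 4444.

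**Figure D1:**
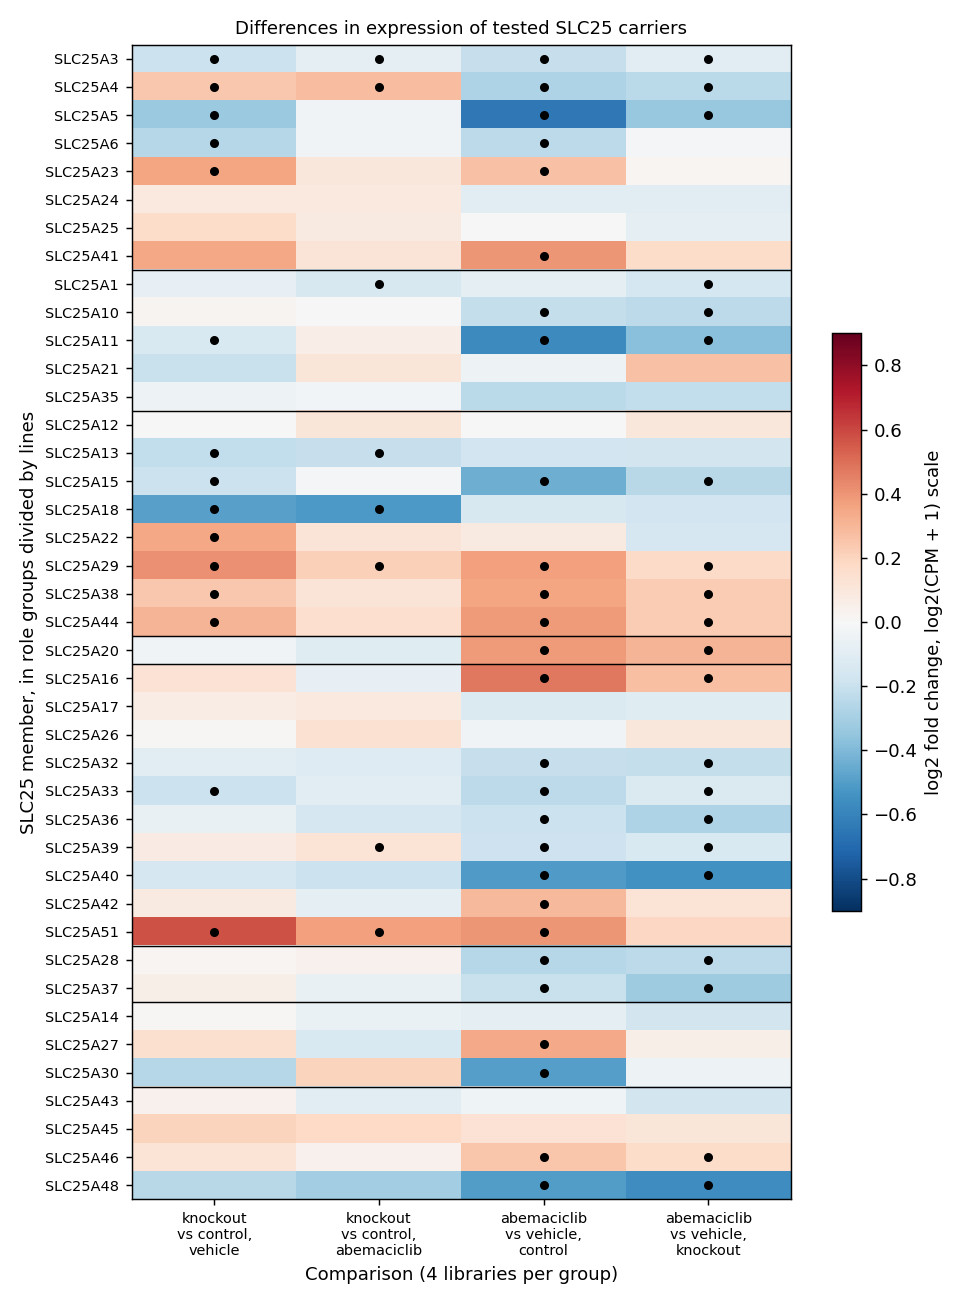
Heat map of the log2 fold change, on the log2(CPM + 1) scale, of each of 41 tested carriers (rows, in role groups divided by lines) in the 4 group comparisons (columns, 4 libraries per group). Black dots mark values with a limma adjusted p under 0.05. SLC25A5 is darkest blue in the drug column of control cells and SLC25A29 is red with a dot in all 4 columns.

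The 3 tested ADP/ATP carriers moved apart between genotypes under vehicle. SLC25A5, the form of dividing cells (ENSG00000005022, chromosome X, 119468400 to 119471319 on the plus strand of GRCh38), stood at 731, 714, 712 and 703 CPM in control and 592, 576, 572 and 531 CPM in knockout libraries under vehicle. Every knockout library was below every control library, with a mean at 79.4% of that in control libraries (log2 fold change -0.33 with an SE of 0.0326, limma adjusted p = 5.0e-10). Under abemaciclib it stood at 457, 444, 463 and 464 CPM in control and 471, 453, 443 and 426 CPM in knockout libraries. The genotypes overlapped there and did not pass the test (-0.03, 95% interval -0.09 to 0.04). The drug thus went with a fall to 63.9% of vehicle in control cells (-0.65, limma adjusted p = 7.5e-18) and to 78.9% in knockout cells (-0.34, limma adjusted p = 1.7e-10), without overlap of the groups in either.

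SLC25A6, another ADP/ATP carrier, lies in the region shared by the X and Y chromosomes and had 2 rows with identical values in all 16 libraries, so it is counted once and given per row. It held 310.5, 306, 301 and 312 CPM in control libraries under vehicle and 239, 266, 259 and 265 CPM in knockout libraries, again without overlap (-0.26, SE 0.0350, limma adjusted p = 3.8e-07). Under the drug it held 246, 259, 267 and 274 CPM in control and 258, 255, 256 and 252 CPM in knockout libraries. The fall with the drug passed the test in control cells (-0.23, limma adjusted p = 1.0e-06), while the value in knockout cells was -0.01 (95% interval -0.08 to 0.06). SLC25A6 and SLC25A5 were the only members called in the interaction.

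SLC25A4, the ADP/ATP carrier of heart and muscle, went the other way with genotype. Control libraries under vehicle held 36.1, 40.9, 38.8 and 36.6 CPM and knockout libraries 44.8, 46.1, 47.1 and 42.5 CPM, so every knockout library was higher (0.24, SE 0.0619, limma adjusted p = 0.00238). Under the drug the values were 29.5, 31.3, 34.8 and 29.6 CPM for control and 36.3, 34.2, 42.4 and 39.9 CPM for knockout libraries, with 1 knockout library within the control range (0.28, limma adjusted p = 7.2e-04). With the drug SLC25A4 fell in both genotypes (-0.28 in control and -0.24 in knockout cells), the latter not after rescaling (-0.15, limma adjusted p = 0.0555). SLC25A3, the carrier of phosphate and of copper, held 485, 467, 480.5 and 481 CPM in control and 411, 432, 421 and 411 CPM in knockout libraries under vehicle. It was lower in knockout cells (-0.19, SE 0.0296, limma adjusted p = 3.3e-06) and fell with the drug in control cells (-0.21). Its values under the drug were 404, 406, 412 and 431 CPM in control and 395, 391, 378 and 399.6 CPM in knockout libraries. The calls of SLC25A3 among drug-treated or knockout libraries were small: -0.08 between genotypes under the drug (limma adjusted p = 0.0384) and -0.10 with the drug in knockout cells, which became -0.01 after rescaling. The former was lost without replicate 3 or 4 of control abemaciclib or replicate 2 or 3 of knockout abemaciclib (limma adjusted p up to 0.155).

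**Figure D2:**
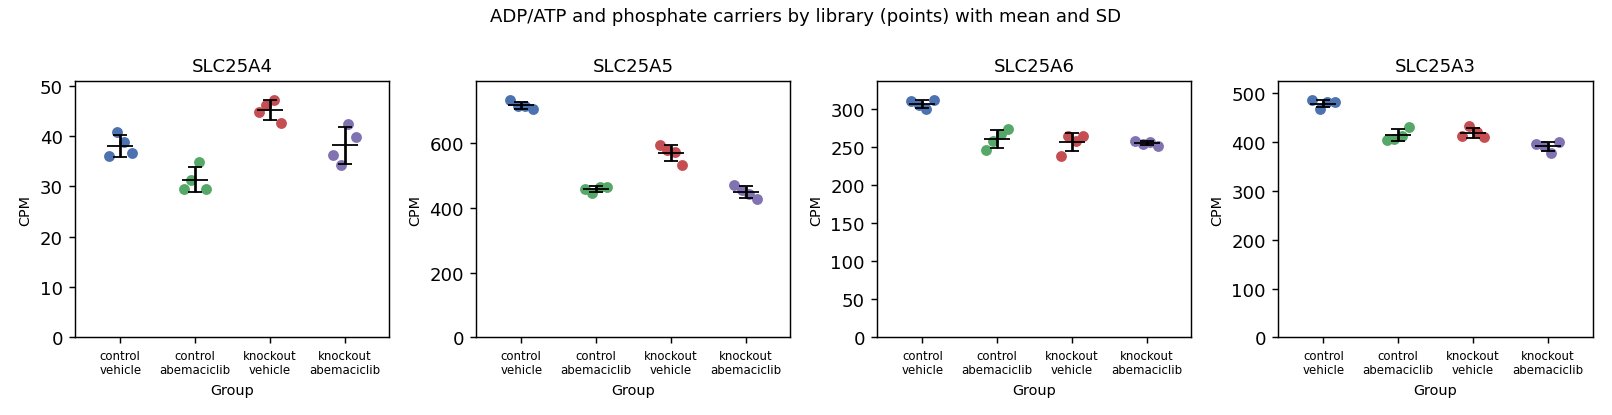
CPM (vertical axes, from 0) of the 3 tested ADP/ATP carriers SLC25A4, SLC25A5 and SLC25A6 and of the phosphate carrier SLC25A3 in each library (points) of the 4 groups (horizontal axes), with the mean and SD of 4 libraries in black. For SLC25A5 the control libraries under vehicle lie at 703 to 731 CPM, above all 12 other libraries, and for SLC25A4 the knockout libraries under vehicle are the highest group.

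The ATP-Mg/phosphate carriers, which adjust the adenine nucleotide content of the matrix, differed among themselves. SLC25A23 held 19.6, 21.2, 17.9 and 19.4 CPM in control and 22.9, 25.9, 26.1 and 26.1 CPM in knockout libraries under vehicle, without overlap (0.35, SE 0.0676, limma adjusted p = 8.2e-05). It also rose with the drug in control cells, to 22.3, 23.96, 24.1 and 24.2 CPM (0.27, limma adjusted p = 0.00131), and stood at 25.5, 25.7, 22.4 and 28.6 CPM in knockout cells under the drug. Control cells under vehicle were thus the lowest group. SLC25A24 and SLC25A25 were not called in any comparison. SLC25A24 held 25.7, 26.9, 24.4 and 23.3 CPM in control libraries under vehicle and 26.7, 27.7, 27.2 and 24.95 CPM in knockout libraries, and 27.1, 21.6, 21.8 and 22.8 and 24.2, 25.8, 23.9 and 24.97 CPM under the drug. SLC25A25 held 14.6, 12.7, 16.2 and 17.3 and 16.9, 17.5, 17.9 and 16.2 CPM under vehicle and 14.9, 15.7, 14.96 and 15.03 and 13.9, 15.9, 18.2 and 16.4 CPM under the drug. SLC25A24 lay at 21.6 to 27.7 CPM and SLC25A25 at 12.7 to 18.2 CPM over the 16 libraries, with log2 fold changes of -0.11 to 0.09 and -0.09 to 0.17 in the 4 group comparisons. SLC25A41, a further ATP-Mg/phosphate carrier close to the filter (mean 0.571 ± 0.392 CPM in control cells under vehicle), rose with the drug in control cells (0.40, limma adjusted p = 0.0339), a call lost without replicate 1 or 4 of control vehicle or replicate 2 of control abemaciclib (limma adjusted p up to 0.166).

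Among carriers of organic acids, SLC25A11 showed the largest difference. It exchanges oxoglutarate for malate in the malate-aspartate shuttle (ENSG00000108528, chromosome 17, 4937130 to 4940251 on the minus strand). Its level was 57.3, 55.4, 53.9 and 59.7 CPM in control libraries under vehicle and 35.9, 38.8, 39.3 and 36.8 CPM under the drug, a fall to 66.6% (-0.57, SE 0.0499, limma adjusted p = 1.0e-11). Knockout libraries held 50.2, 53.3, 50.6 and 51.2 CPM under vehicle and 41.1, 41.1, 38.9 and 36.1 CPM under the drug (-0.38, SE 0.0499, limma adjusted p = 1.7e-07). Vehicle and drug did not overlap in either genotype. The knockout was lower under vehicle by a small amount (-0.14, limma adjusted p = 0.0282), a call lost without replicate 1 or 4 of control vehicle or replicate 1, 3 or 4 of knockout vehicle (limma adjusted p up to 0.109). SLC25A10, which exchanges dicarboxylates for phosphate, fell with the drug by like amounts (-0.21 in control and -0.23 in knockout cells) and did not pass the test between genotypes. SLC25A1, the citrate carrier that feeds cytosolic acetyl-CoA, was lower in drug-treated knockout cells than in drug-treated control cells (-0.15, 81.8 ± 2.34 against 90.7 ± 1.49 CPM, limma adjusted p = 0.0107). It also fell with the drug in knockout cells (-0.16), though not after rescaling (-0.07). SLC25A21, a carrier of oxoadipate and oxoglutarate, and SLC25A35, of unsettled substrate, were not called in any comparison.

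Of the 7 members that rose with the knockout under vehicle, 4 were amino acid carriers, of which 8 were tested. Of the same 8, 3 fell (SLC25A13, SLC25A15 and SLC25A18). Over all tested rows 24.6% rose and 13.1% fell. SLC25A29, a carrier of basic amino acids, had 27.03, 29.01, 26.8 and 31.1 CPM in control and 37.5, 40.2, 37.4 and 37.4 CPM in knockout libraries under vehicle (0.41, SE 0.0558, limma adjusted p = 3.8e-07). Under the drug it had 36.8, 34.6, 38.7 and 38.2 CPM in control and 40.7, 45.96, 41.4 and 44.6 CPM in knockout libraries (0.21, limma adjusted p = 0.00357). Its groups did not overlap between genotypes or between treatments, and it rose with the drug by 0.37 in control and 0.17 in knockout cells. The latter was lost without replicate 2 of knockout abemaciclib (limma adjusted p = 0.0631). SLC25A22, a glutamate carrier, rose with the knockout under vehicle (0.35, 29.8 ± 2.900 against 23.2 ± 2.304 CPM, limma adjusted p = 1.5e-04) and was not called in the other comparisons.

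SLC25A38, a glycine carrier needed for heme synthesis, and SLC25A44, a carrier of branched-chain amino acids, rose with the knockout under vehicle (0.24 and 0.31) and with the drug in control (0.35 and 0.38) and knockout cells (0.23 and 0.23). The last value, that of SLC25A44, lost its call without replicate 4 of knockout abemaciclib (limma adjusted p = 0.0532). SLC25A38 went from 34.1 ± 0.265 CPM in control cells under vehicle to 47.7 ± 3.53 CPM in knockout cells under the drug, and SLC25A44 from 19.5 ± 1.29 to 28.8 ± 3.001 CPM. Rises with the knockout under vehicle and with the drug in control cells share the control vehicle libraries. SLC25A15, which exchanges ornithine for citrulline in the urea cycle, moved in the opposite direction: it fell with the drug in control (-0.44, from 21.1 ± 1.83 to 15.3 ± 1.21 CPM, limma adjusted p = 5.2e-06) and knockout cells (-0.25; -0.16 and not called after rescaling). Its fall with the knockout under vehicle (-0.20) was lost without replicate 1, 2 or 4 of control vehicle or replicate 1 or 3 of knockout vehicle (limma adjusted p up to 0.120).

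The aspartate/glutamate carriers SLC25A12 and SLC25A13 export aspartate for the malate-aspartate shuttle. SLC25A12 held 8.98, 9.42, 9.58 and 9.24 CPM in control and 9.45, 8.98, 9.23 and 9.703 CPM in knockout libraries under vehicle, and 11.5, 8.28, 8.498 and 9.06 and 8.14, 11.8, 12.5 and 8.53 CPM under the drug. It was not called in any comparison, and under the drug 1 control and 2 knockout libraries lay above all the others. SLC25A13 held 19.3, 19.5, 17.9 and 18.9 CPM in control and 15.5, 14.4, 16.7 and 17.9 CPM in knockout libraries under vehicle, and 19.9, 15.9, 15.98 and 15.1 and 13.99, 15.7, 14.5 and 12.98 CPM under the drug. It was lower in knockout cells under vehicle (-0.22, limma adjusted p = 0.0272) and under the drug (-0.21, limma adjusted p = 0.0437). The call under vehicle was lost without replicate 1 or 2 of control vehicle or replicate 1 or 2 of knockout vehicle (limma adjusted p up to 0.118). That under the drug was lost without replicate 1 of control abemaciclib or replicate 1, 3 or 4 of knockout abemaciclib (limma adjusted p up to 0.222).

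SLC25A18, a second glutamate carrier (ENSG00000182902, chromosome 22, 17563439 to 17590994 on the plus strand), was near the filter and lower in knockout cells. Control libraries held 1.92, 1.59, 1.71 and 1.603 CPM under vehicle and 1.68, 1.05, 1.44 and 1.64 CPM under the drug, and knockout libraries 0.752, 1.496, 0.896 and 0.647 and 0.915, 0.797, 0.595 and 0.545 CPM. The genotypes did not overlap under either treatment (-0.49, SE 0.138, limma adjusted p = 0.00487 under vehicle; -0.52, SE 0.138, limma adjusted p = 0.00415 under the drug). With a pseudocount of 0.1 the values were -0.84 and -0.94. These levels stand for 6 to 19 reads a library. The 2 glutamate carriers SLC25A22 and SLC25A18 thus had opposite signs between genotypes.

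SLC25A20, the carnitine/acylcarnitine carrier that brings fatty acids to oxidation, rose with the drug and did not pass the test between genotypes. It held 21.1, 18.1, 18.8 and 20.2 CPM in control libraries under vehicle and 25.8, 26.98, 25.6 and 24.8 CPM under the drug (0.38, SE 0.0637, limma adjusted p = 5.5e-06). Knockout libraries held 20.5, 19.6, 17.8 and 18.7 and 22.7, 25.9, 24.4 and 22.7 CPM (0.31, limma adjusted p = 2.2e-04). Vehicle and drug did not overlap in either genotype. The differences between genotypes were -0.03 under vehicle (95% interval -0.16 to 0.10) and -0.11 under the drug (-0.24 to 0.02).

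SLC25A16 and SLC25A42 were higher with the drug in control cells. SLC25A16, a carrier linked to coenzyme A, was chosen after its values were seen and held 29.9, 29.8, 31.95 and 28.4 CPM in control libraries under vehicle and 46.6, 40.8, 39.5 and 41.3 CPM under the drug (0.47, limma adjusted p = 2.6e-08). In knockout libraries it held 33.98, 33.6, 32.2 and 32.1 and 44.8, 39.1, 36.9 and 39.1 CPM (0.27, limma adjusted p = 3.9e-04), again without overlap of the treatments. SLC25A42, a carrier of coenzyme A, rose with the drug in control cells (0.29), and its value in knockout cells was 0.12.

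SLC25A51, which imports NAD, was the member with the largest rise in knockout cells under vehicle (ENSG00000122696, chromosome 9, 37879400 to 37904353 on the minus strand). Control libraries held 3.19, 2.21, 3.301 and 3.72 CPM and knockout libraries 5.503, 4.805, 4.71 and 5.25 CPM under vehicle (0.57, SE 0.118, limma adjusted p = 2.1e-04). Under the drug control libraries held 4.23, 5.42, 3.75 and 4.12 CPM and knockout libraries 6.88, 5.31, 6.101 and 5.45 CPM (0.37, limma adjusted p = 0.0161). The genotypes did not overlap under vehicle and overlapped under the drug, where the call was lost without replicate 3 of control abemaciclib or replicate 1 of knockout abemaciclib (limma adjusted p up to 0.0699). With the drug SLC25A51 rose in control cells (0.39), while the value in knockout cells was 0.19. Its reads were whole numbers in only 2 of 16 libraries, so part of them may have been shared with other genes, by an amount that is not known. SLC25A52, its close copy, was at most 0.219 CPM in any library.

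The glutathione carriers SLC25A39 and SLC25A40 fell with the drug. SLC25A40 held 10.6, 11.6, 11.5 and 10.7 CPM in control libraries under vehicle and 7.29, 7.88, 7.48 and 7.42 CPM under the drug, a fall to 67.7% (-0.51, SE 0.0877, limma adjusted p = 9.9e-06). Knockout libraries held 10.2, 10.2, 10.9 and 8.41 and 5.85, 6.11, 7.304 and 6.63 CPM (-0.55, SE 0.0877, limma adjusted p = 5.3e-06). Treatments did not overlap in either genotype. SLC25A39 fell by less, from 138, 128, 127 and 129.8 to 107, 115, 117 and 120.2 CPM in control libraries (-0.19, limma adjusted p = 9.0e-04). In knockout libraries it went from 125, 144, 148 and 135 to 117, 125, 130.4 and 128 CPM (-0.14, limma adjusted p = 0.0148). That call was not kept after rescaling (-0.05, limma adjusted p = 0.455) and was lost without replicate 2 or 3 of knockout vehicle or replicate 1 of knockout abemaciclib (limma adjusted p up to 0.0866). Between genotypes SLC25A39 was called higher in knockout cells under the drug (0.12, limma adjusted p = 0.0402), a call lost after rescaling (0.08) and without replicate 1 or 2 of control abemaciclib or replicate 2, 3 or 4 of knockout abemaciclib (limma adjusted p up to 0.140).

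The pyrimidine nucleotide carriers SLC25A33 and SLC25A36 were both lower with the drug. SLC25A33 held 43.2, 41.6, 40.7 and 42.4 CPM in control libraries under vehicle and 34.1, 37.6, 35.2 and 35.4 CPM under the drug (-0.23, limma adjusted p = 2.5e-04), and 38.5, 34.3, 38.4 and 35.3 and 33.98, 32.9, 34.1 and 32.2 CPM in knockout libraries (-0.13, limma adjusted p = 0.0391). The latter became -0.04 after rescaling and was lost without replicate 1 or 3 of knockout vehicle or replicate 2 or 4 of knockout abemaciclib (limma adjusted p up to 0.129). SLC25A33 was also lower in knockout cells under vehicle (-0.19, limma adjusted p = 0.00278), without overlap. SLC25A36 held 54.96, 53.2, 48.99 and 51.8 and 53.6, 43.7, 44.4 and 41.3 CPM in control libraries (-0.19), where 1 drug-treated library lay within the vehicle range and the call was lost after rescaling (-0.12). In knockout libraries it held 51.3, 47.9, 48.7 and 51.2 and 37.7, 43.7, 41.2 and 41.5 CPM, without overlap (-0.27, limma adjusted p = 3.7e-04). SLC25A32, which imports folate, was called lower with the drug in both genotypes, close to the threshold (-0.21 and -0.22, limma adjusted p = 0.0491 and 0.0479). In both it was lost after rescaling (-0.14 and -0.13). The call in control cells was lost without replicate 1, 2 or 4 of control vehicle, replicate 2, 3 or 4 of control abemaciclib, replicate 2 or 3 of knockout vehicle or replicate 1, 2, 3 or 4 of knockout abemaciclib (limma adjusted p up to 0.154). That in knockout cells was lost without replicate 2 or 4 of control vehicle, replicate 2 or 3 of control abemaciclib, replicate 1, 2 or 3 of knockout vehicle or replicate 1, 2, 3 or 4 of knockout abemaciclib (limma adjusted p up to 0.179). SLC25A17, a peroxisomal carrier of cofactors, and SLC25A26, which imports S-adenosylmethionine, were not called in any comparison.

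**Figure D3:**
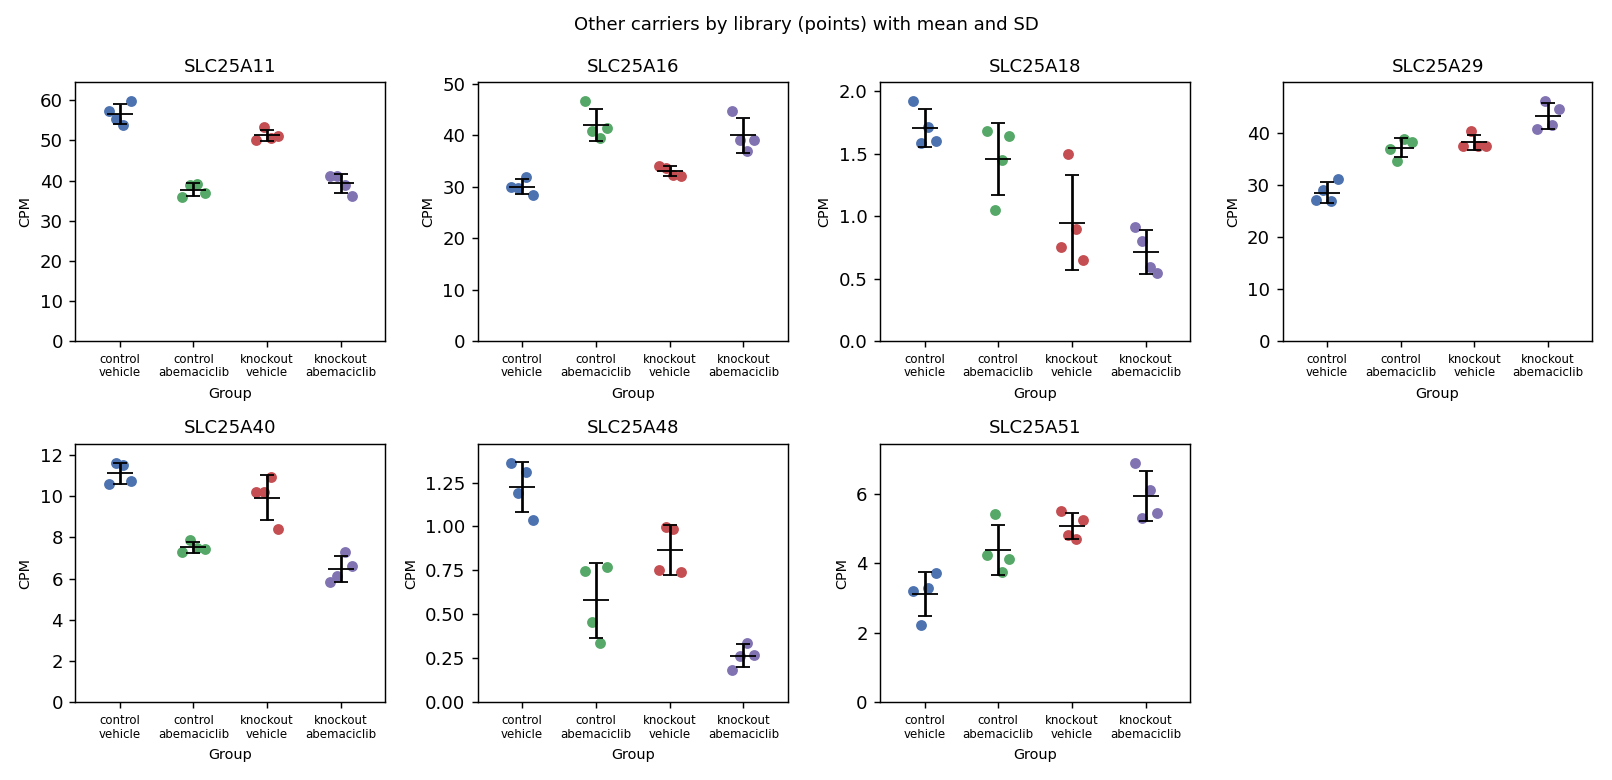
CPM (vertical axes, from 0) in each library (points) of the 4 groups (horizontal axes), with the mean and SD of 4 libraries in black, for 7 members: SLC25A11, SLC25A18, SLC25A40, SLC25A48 and SLC25A51, called with a log2 fold change of at least 0.5 in size in a group comparison, and SLC25A16 and SLC25A29. SLC25A40 is lower in all 8 drug-treated than in all 8 vehicle libraries, and SLC25A29 is lowest in control cells under vehicle and highest in knockout cells under the drug.

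The iron carriers of the mitochondrion, mitoferrins 1 and 2, fell with the drug. SLC25A37 held 32.3, 33.9, 34.7 and 36.96 CPM in control libraries under vehicle and 32.6, 26.2, 29.6 and 31.3 CPM under the drug (-0.20, limma adjusted p = 0.00752), with 1 drug-treated library in the vehicle range. The call was lost after rescaling (-0.13) and without replicate 2 of control abemaciclib (limma adjusted p = 0.0619). In knockout libraries it held 36.5, 34.8, 36.7 and 35.3 and 28.7, 27.9, 25.99 and 31.4 CPM, without overlap (-0.32, limma adjusted p = 8.5e-05). SLC25A28 held 16.6, 17.3, 16.3 and 16.8 and 13.9, 14.5, 14.02 and 12.9 CPM in control libraries (-0.26, limma adjusted p = 0.00389), without overlap, and 16.4, 18.8, 15.3 and 17.5 and 12.8, 13.9, 14.2 and 16.3 CPM in knockout libraries (-0.24). The last was lost after rescaling (-0.15) and without replicate 2 of knockout vehicle or replicate 1 of knockout abemaciclib (limma adjusted p up to 0.0612). Neither carrier passed the test between genotypes, with values of -0.07 to 0.06 for SLC25A37 and 0.01 to 0.04 for SLC25A28.

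Among relatives of the uncoupling proteins, SLC25A27 rose with the drug in control cells (0.34, from 5.64 ± 0.493 to 7.43 ± 1.05 CPM, limma adjusted p = 0.0192), a call lost without replicate 4 of control vehicle or replicate 1 or 2 of control abemaciclib (limma adjusted p up to 0.0777). SLC25A30 fell with the drug in control cells (-0.50, from 4.802 ± 0.449 to 3.12 ± 0.476 CPM, limma adjusted p = 3.7e-04), while the value in knockout cells was -0.04. The difference between these, 0.45, missed the threshold (limma adjusted p = 0.0620) and passed it after rescaling (0.47, limma adjusted p = 0.0480). SLC25A14 was not called in any comparison.

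SLC25A46, which sits in the outer membrane and acts in mitochondrial division and fusion, rose with the drug in control (0.25, from 31.7 ± 3.19 to 37.8 ± 1.87 CPM, limma adjusted p = 7.1e-04) and knockout cells (0.17, limma adjusted p = 0.0254). The latter was lost without replicate 2 or 3 of knockout vehicle or replicate 1 or 3 of knockout abemaciclib (limma adjusted p up to 0.0909). SLC25A48, a member near the filter (ENSG00000145832, chromosome 5, 135579202 to 135889770 on the plus strand), held 1.36, 1.19, 1.31 and 1.04 CPM in control libraries under vehicle and 0.747, 0.460, 0.340 and 0.771 CPM under the drug. In knockout libraries it held 0.752, 0.997, 0.985 and 0.739 and 0.183, 0.266, 0.340 and 0.272 CPM, which under the drug stands for 2 to 4 reads a library. It fell with the drug in both genotypes without overlap (-0.50 and -0.56, limma adjusted p = 0.00176 and 8.6e-04). With a pseudocount of 0.1 these were -1.01 and -1.41, and the difference between genotypes under the drug, -0.31 and not called with a pseudocount of 1, passed the test at -0.86 (limma adjusted p = 0.0245). SLC25A43 and SLC25A45 were not called in any comparison.

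The interaction asks whether the change with the drug differed between genotypes. It was called for SLC25A5 (0.30, SE 0.0461, limma adjusted p = 1.7e-05) and SLC25A6 (0.22, SE 0.0495, limma adjusted p = 0.00215), 2 of 42 members. Over all tested rows 4.68% were called in this direction and 6.16% in the other. Their change with the drug was smaller in knockout than in control cells, and both were lower in knockout cells before the drug. Without any 1 library the value of SLC25A5 ran from 0.273 to 0.329 and that of SLC25A6 from 0.189 to 0.246, and after rescaling they were 0.32 and 0.24, all called. The reads of SLC25A5 and SLC25A6 were whole in 5 of 16 libraries, so that part of them may have been shared with other rows. SLC25A11 (0.20) and SLC25A3 (0.11) had the same sign and missed the threshold (limma adjusted p = 0.0709 and 0.0823). Each of these passed it without 1 library: SLC25A11 without knockout abemaciclib replicate 4 (0.23, limma adjusted p = 0.0293) and SLC25A3 without control abemaciclib replicate 4 (0.13, limma adjusted p = 0.0344).

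**Figure D4:**
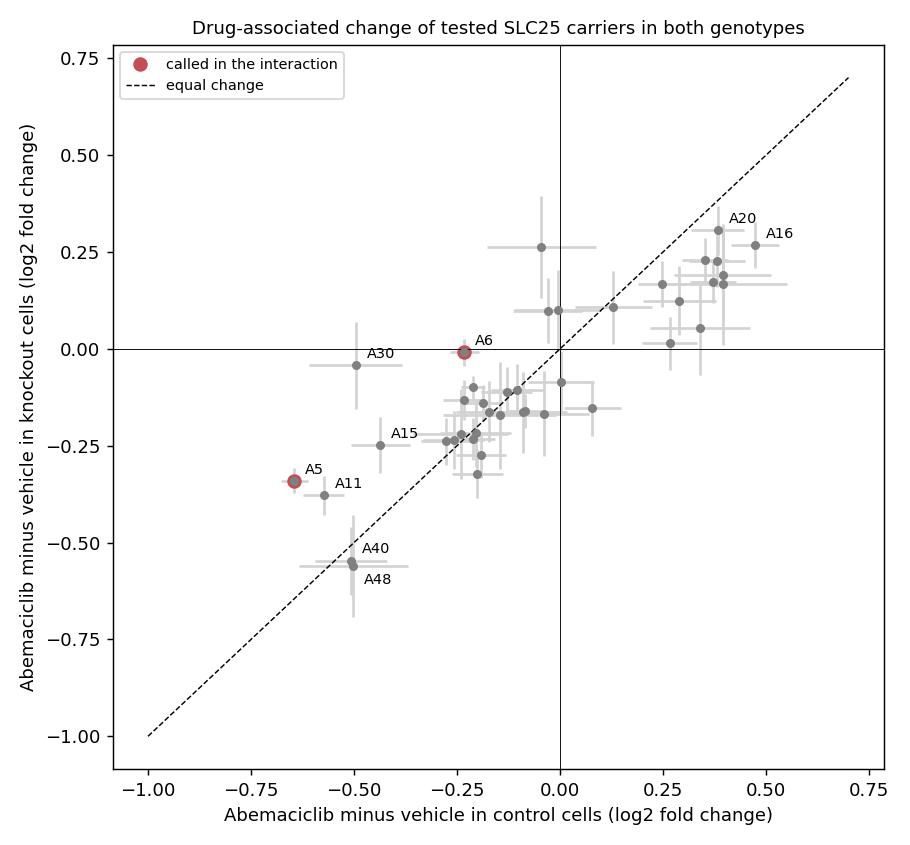
Scatter plot of the log2 fold change with abemaciclib in knockout cells (vertical axis) against that in control cells (horizontal axis), on the log2(CPM + 1) scale, for 41 tested carriers (points, with SE bars). The dashed line marks equal change. The 2 carriers called in the interaction, SLC25A5 and SLC25A6 (red), lie above the line, and SLC25A40 and SLC25A48 lie near it at the lower left.

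Some calls rest on reads that may have been divided between rows. Of the 42 tested members 9 were read as whole numbers, within 0.02 reads, in 8 or fewer of 16 libraries (SLC25A5, SLC25A6, SLC25A10, SLC25A23, SLC25A29, SLC25A32, SLC25A33, SLC25A45 and SLC25A51), which leaves their values uncertain to an unknown degree. Among the other 33, 4 rose and 5 fell with the knockout under vehicle, and 2 and 4 under the drug. With the drug 8 rose and 12 fell in control cells, and 5 and 12 in knockout cells, and none was called in the interaction. The shares of all tested rows that rose and fell were 24.6% and 13.1% and 18.6% and 11.3% in the first 2 comparisons and 19.6% and 31.1% and 11% and 27.4% with the drug. The strand setting of the counting is not given in the sources used here, so that reads of SLC25A5, SLC25A21, SLC25A25, SLC25A30, SLC25A34 and SLC25A48 and of the antisense genes named for them could not be told apart. The 6 members below the filter did not exceed 1.097 CPM in any library.

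Some members that were not called in any comparison, and other values of the interaction, passed limma's test without 1 library. Without control vehicle replicate 4, calls were gained by SLC25A25 for the knockout under vehicle (0.23, adjusted p = 0.0333). Without control abemaciclib replicate 1, calls were gained by SLC25A24 for the drug in control cells (-0.17, adjusted p = 0.0183), SLC25A17 for the drug in control cells (-0.17, adjusted p = 0.0290) and SLC25A30 for the interaction (0.53, adjusted p = 0.0271). Without control abemaciclib replicate 2, calls were gained by SLC25A17 for the drug in control cells (-0.16, adjusted p = 0.0495) and SLC25A35 for the drug in control cells (-0.31, adjusted p = 0.0414). Without knockout vehicle replicate 1, calls were gained by SLC25A23 for the interaction (-0.30, adjusted p = 0.0469). Without knockout vehicle replicate 2, calls were gained by SLC25A30 for the interaction (0.52, adjusted p = 0.0360). Without knockout abemaciclib replicate 1, calls were gained by SLC25A16 for the interaction (-0.26, adjusted p = 0.0349). Without knockout abemaciclib replicate 4, calls were gained by SLC25A23 for the interaction (-0.31, adjusted p = 0.0366).

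After rescaling, calls were gained by SLC25A1 for the knockout under vehicle (-0.13, adjusted p = 0.0185), SLC25A30 for the knockout under vehicle (-0.30, adjusted p = 0.0306), SLC25A40 for the knockout under the drug (-0.23, adjusted p = 0.0444), SLC25A36 for the knockout under the drug (-0.19, adjusted p = 0.00747) and SLC25A33 for the knockout under the drug (-0.14, adjusted p = 0.0445). With a pseudocount of 0.1, calls were gained by SLC25A41 for the knockout under vehicle (0.85, adjusted p = 0.0415) and SLC25A48 for the knockout under the drug (-0.86, adjusted p = 0.0245). With limma without the trend, calls were gained by SLC25A48 for the knockout under vehicle (-0.25, adjusted p = 0.0330) and the knockout under the drug (-0.31, adjusted p = 0.0142) and SLC25A30 for the knockout under vehicle (-0.25, adjusted p = 0.0473).

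Of the 54 listed genes that work with the carriers but are not members by symbol, 52 were tested. Under vehicle 8 rose and 12 fell with the knockout, where 24.6% and 13.1% of all tested rows did, and under the drug 10 and 12, where 18.6% and 11.3% did. With the drug 7 rose and 33 fell in control cells, where 19.6% and 31.1% of all rows did, and 5 and 20 in knockout cells, where 11% and 27.4% did. In the interaction 8 were called higher and 2 lower, where 4.68% and 6.16% of all tested rows were. Of the family members under other symbols, UCP2 rose with the knockout under vehicle (0.24) and with the drug in control cells (0.25), with a called interaction (-0.32). MTCH1 and MTCH2, relatives in the outer membrane, rose by 0.10 and 0.10 with the knockout under vehicle and by 0.10 and 0.12 under the drug. The rule for naming other genes was a called log2 fold change of 0.3 or more in size in a group comparison. UCP2, MTCH1, MTCH2, TIMM22, TOMM22, GOT2, MDH2 and CPT1A are named here although they did not meet it. TIMM9 and CPT2 come to 0.3 by rounding only.

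The route that inserts the carriers held 12 tested genes, of which 0 rose and 3 fell with the knockout under vehicle, 2 rose and 2 fell with it under the drug, 0 rose and 9 fell with the drug in control cells, and 1 rose and 4 fell with the drug in knockout cells. Over all tested rows these shares were 24.6% and 13.1%, 18.6% and 11.3%, 19.6% and 31.1% and 11% and 27.4%, in the same order. TIMM10, a small chaperone of the space between the membranes that carries these proteins, fell with the drug in control (-0.61) and knockout cells (-0.34) and with the knockout under vehicle (-0.25). Its partner TIMM9 was lower in knockout cells under vehicle (-0.30). The pore TOMM40 fell with the drug (-0.55 and -0.59), as did TIMM8A in control cells (-0.35). TOMM20, an import receptor, fell with the knockout under vehicle (-0.32). Interactions were called for TIMM10 (0.27), TIMM8A (0.32), TOMM20 (0.22) and TOMM22 (0.16), all with the sign of SLC25A5. These were 4 of 12 genes, where 4.68% of all tested rows were called in this direction and 6.16% in the other. Unlike SLC25A5, TOMM20 fell with the drug in control cells (means of 268 and 245 CPM) and rose in knockout cells (214 and 229 CPM). TIMM22, the insertase itself, was not called in any comparison. Reads of TIMM10, TOMM20 and TOMM40 were whole numbers in 1, 2 and 4 of 16 libraries.

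Other transporters of the inner and outer membranes fell with the drug in 12 of 17 cases in control cells and 8 of 17 in knockout cells, where 31.1% and 27.4% of all tested rows fell, and 1 rose in each (19.6% and 11% of all rows). Between genotypes 2 rose and 0 fell under vehicle (all rows 24.6% and 13.1%), and 2 and 1 under the drug (all rows 18.6% and 11.3%). The largest falls with the drug in control cells, given with the values in knockout cells, were those of SFXN5 (-0.45 and -0.62), of the outer membrane channel VDAC3 (-0.48 and -0.45), of ABCB10, which stabilises mitoferrin 1 (-0.36 and -0.36), and of the calcium uniporter MCU in control cells (-0.34). SFXN1, a serine carrier, fell (-0.27 and -0.34), and SFXN2 rose (0.33 and 0.24).

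Of 20 enzymes that share substrates with the carriers, 3 rose and 9 fell with the knockout under vehicle and 4 and 9 under the drug, and 5 rose and 11 fell with the drug in control cells and 3 and 7 in knockout cells. All tested rows rose and fell in 24.6% and 13.1%, 18.6% and 11.3%, 19.6% and 31.1% and 11% and 27.4% of cases. In the interaction 4 of the 20 were called higher (GOT1, MDH1, MTHFD2 and SHMT2) and 1 lower (OAT). Over all tested rows these shares were 4.68% and 6.16%. In the malate-aspartate shuttle the cytosolic enzymes GOT1 (-0.69 and -0.42) and MDH1 (-0.40 and -0.18) fell with the drug in control and knockout cells, as SLC25A11 did, and both had called interactions (0.28 and 0.21). The mitochondrial enzymes went different ways. GOT2 rose by small amounts (0.17 and 0.11). MDH2 fell with the drug in control cells, from a mean of 723 to 690 CPM, and was not called with it in knockout cells. With the knockout under vehicle GOT1, MDH1 and MDH2 were called lower and GOT2 higher, and MDH2 was also lower with the knockout under the drug. Of the folate enzymes, SHMT2 fell by 0.69 and MTHFD2 by 0.58 with the knockout under vehicle and by 0.78 and 0.83 with the drug in control cells, while the folate carrier SLC25A32 was at -0.10 and -0.21 in these comparisons. OAT, which converts ornithine, rose in all 4 group comparisons (0.39, 0.18, 0.46 and 0.24). ARG2, which makes ornithine, fell with the knockout (-0.48 and -0.34) and was not called with the drug in either genotype. The ornithine carrier SLC25A15 was called lower with the drug in both genotypes. Its call with the knockout under vehicle depended on single libraries.

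Beside the rise of the carnitine carrier SLC25A20 with the drug, CPT1B rose (0.35 and 0.34) and CPT2 fell in control cells (-0.24). CPT1A, at a higher level than CPT1B (means of 75.3 and 4.65 CPM in control cells under vehicle), did not rise. With the drug its mean was 72.9 CPM in control cells, without a call. In knockout cells it fell from 71.9 to 65.9 CPM, which was called. Under the drug CPT1A was also called lower in knockout than in control cells. With the knockout under vehicle CPT2 (-0.30) and CRAT (-0.25), which handle the same carnitine esters, fell. Both were also called lower with the knockout under the drug. With the drug CRAT rose in control cells, from a mean of 38.9 to 42.9 CPM, and was not called in knockout cells. Of the glycerol phosphate shuttle, GPD1 rose with the drug in control cells (0.73) and GPD2 fell in both (-0.34 and -0.41).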

How the data were processed

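RNA was sequenced from 16 libraries of T47D cells, in 4 groups of 4. The authors deposited 1 table of read counts scaled to 1000000 assigned reads per library (CPM). Per the submitters' processing notes the tools were STAR 2.7.11, SAMtools 1.22.1, featureCounts of Subread 2.1.1 and MultiQC 1.32, with GRCh38. Of the counting, neither the annotation nor the strand, the treatment of reads with several matches or molecular identifiers is stated there. Reads shared between genes can change the CPM of members with near copies.

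Between 70.2% and 71.8% of values above 0 were whole reads within 0.02, and 5270 of 16218 tested rows (32.5%) were whole in all 16 libraries, so that no count test was run. Rows that reached 1 CPM in 4 libraries or more were tested with limma 3.58.1 (R 4.3.3) on log2(CPM + 1), a pseudocount of 1, after 92 spike-in rows were left out. A single fit held 4 group means and 5 contrasts, with a trended prior and two-sided p-values adjusted by Benjamini-Hochberg over all tested rows. Calls are values with an adjusted p under 0.05. The fit was run on simulated whole-number counts, with changes set in the knockout vehicle group alone. Only the knockout effect under vehicle was scored there, so that divided reads and the interaction were not covered. Alternatives were a pseudocount of 0.1, no filter, median-of-ratios rescaling, limma without the trend, a replicate block and leaving out each library. The comparisons share libraries with each other: the knockout effect under vehicle and the drug effect in control cells both use the control vehicle libraries.

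Members and the 12 lists were chosen with earlier results of these data known. Members called at 0.5 or more in size on the log2 scale and tested paralog sets are given in every library, as are SLC25A3, SLC25A16, SLC25A20 and SLC25A29, the others by fold changes or ranges. Counts cover all tested members and listed genes, but 1 carrier and 2 listed genes are not reported here by name or drawn. Gene positions are those of GENCODE v29 and upstream sequences those of RefSeq, both on GRCh38. Of 50 RefSeq entries, 46 had their last 25 bases in a transcript of the gene.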

Additional observations from a re-analysis of the deposited data

Results flagged for a closer look

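The change with the drug differed between genotypes for SLC25A5 (interaction 0.30 on the log2 scale) and SLC25A6 (0.22), by limma's test of the difference itself. Among 168 groups of 4 libraries (42 members in 4 groups), 11 held a library whose distance from the nearest of the others was large for the range of its group. Chance sets about 1 in 20 groups apart in this way.

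Among control libraries under abemaciclib, SLC25A23 had a low library at 22.3 CPM, SLC25A43 at 7.13 CPM and SLC25A46 at 35.0 CPM. In the same group SLC25A25 had a high library at 15.7 CPM, SLC25A26 at 15.1 CPM and SLC25A30 at 3.83 CPM. The high libraries of SLC25A26 and SLC25A30 were both replicate 1, and the low ones of SLC25A43 and SLC25A46 both replicate 4. Among knockout libraries under vehicle, SLC25A23 had a low library at 22.9 CPM and SLC25A29 a high one at 40.2 CPM. Among knockout libraries under abemaciclib, SLC25A10 had a high library at 38.1 CPM, and SLC25A14 and SLC25A41 had low ones at 4.69 and 0.908 CPM.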

How the results depend on the processing

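Of 4410 recomputed fold changes of members, 4260 kept their side of the threshold, 108 lost their call and 42 gained one. A change of direction was counted only for values called before or after, and 0 were found. Values without a call in both may have changed sign. Calls were kept under every alternative for 12 of 15 members with the knockout under vehicle, 4 of 8 under the drug, 23 of 28 with the drug in control cells, 11 of 22 in knockout cells and 2 of 2 in the interaction. Without the filter on low values, 5 members were lower with the knockout under vehicle, and 2 were higher and 2 lower under the drug. After rescaling, 7 were lower with the knockout under the drug and 8 were lower with the drug in knockout cells. With 1 library left out, the number lower with the knockout ran from 5 to 8 under vehicle (5 without knockout vehicle replicate 1) and from 2 to 4 under the drug (2 without knockout abemaciclib replicate 3). The number higher with the knockout ran from 7 to 10 under vehicle and from 3 to 5 under the drug. With the drug 9 to 11 were higher and 16 to 20 lower in control cells, and 5 to 6 and 13 to 16 in knockout cells. The number with a lower interaction ran from 0 to 1, with 1 without knockout vehicle replicate 1 or knockout abemaciclib replicate 1 or 4, and that with a higher one from 2 to 3. The replicate numbers did not pair the libraries: deviations of 24 same-number pairs correlated at -0.0367 to 0.0603 (median 0.00123), and 5 of 16 libraries had their highest correlation with their own number. With a replicate block the counts higher and lower were 7 and 8 with the knockout under vehicle, 4 and 3 under the drug, 11 and 17 with the drug in control cells, 6 and 16 in knockout cells, and 2 and 0 in the interaction. The causes of these changes were not tested. Depth limits SLC25A18 and SLC25A48, with 2 to 19 reads a library.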
